A study of Bos taurus and Cervus elaphus with 24 samples.

Results

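The genes described here carry the signals of prolactin, growth hormone and insulin-like growth factor 1 into cells: the ligand IGF1, the receptors PRLR, GHR and IGF1R, the kinase JAK2, the transcription factors STAT5A and STAT5B, and the inhibitors SOCS2, SOCS3 and CISH. They were chosen by symbol, as every non-control probe of an Agilent bovine array that the files name for 1 of these 10 genes, which gave 18 of 43653 probes and 10 of 25232 gene names or identifiers on the array. PRLR had 2 probes, GHR 3, IGF1 3, JAK2 2, STAT5A 3, and the other genes 1 each, and every probe had 1 spot per array. Blood RNA of red deer (Cervus elaphus), of Polish Red cattle (PR) and of Holstein-Friesian cattle (HF, a dairy breed) was hybridised to 24 arrays, 4 for each animal kind and physiological state. The states were peak lactation and the dry period, the pause in milking before birth, and the series text says that each animal was bled in both. Ages are not given in the sources used here, and no group had an added treatment. The source is labelled peripheral blood nuclear cells, although blood went straight into tubes that fix RNA in whole blood. Values are log2 ratios of the RNA of 1 animal (Cy5 dye) to a reference pooled from 20 cattle outside the groups (Cy3 dye). Each array was centred on the trend of its own probes, so 0 means a ratio to that pool that is typical of the array. All probes were designed on cattle sequence, so in deer a difference in RNA level and a difference in how well the probe pairs cannot be told apart.

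Prolactin and growth hormone each bind a receptor without kinase activity of its own, PRLR or GHR. The bound receptor activates JAK2, which phosphorylates STAT5A and STAT5B, and these enter the nucleus and switch on target genes. CISH, SOCS2 and SOCS3 are among those targets and in turn damp the signal, while growth hormone action in the liver releases IGF1, which acts through the receptor kinase IGF1R. In dairy cattle the axis is best known for driving milk secretion and for the uncoupling of growth hormone from IGF1 after calving. Blood cells use the same JAK2 and STAT5 proteins for several cytokines, so a level of these transcripts in blood does not belong to prolactin or growth hormone alone.

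The probes of JAK2 and STAT5A are shown because the probes of 1 gene gave different values in deer. Coordinates are those of the file headers, on the UMD 3.1 cattle assembly. The JAK2 probe A_73_P086186 lies at chr8:39632638-39632697 on the minus strand, and its final TGA, in capitals, is the stop of its reading frame. The JAK2 probe A_73_P402726 covers 3810 bases at chr8:39645527-39649336 on the minus strand, more than its own 60, so it crosses an exon junction. The STAT5A probe A_73_P250836 spans chr19:43052894-43053953 on the plus strand and likewise crosses a junction. The STAT5A probe A_73_P053856 lies at chr19:43039409-43039468 on the plus strand, and the files list it for transcripts of both STAT5A and STAT5B.
JAK2 A_73_P086186: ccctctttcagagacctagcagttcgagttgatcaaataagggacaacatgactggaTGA
JAK2 A_73_P402726: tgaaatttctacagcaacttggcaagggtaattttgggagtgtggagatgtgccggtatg
STAT5A A_73_P250836: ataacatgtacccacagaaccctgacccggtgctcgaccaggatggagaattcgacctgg
STAT5A A_73_P053856: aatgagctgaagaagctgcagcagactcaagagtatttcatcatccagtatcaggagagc

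On 23 arrays 30835 to 39110 probes were well above background in Cy5, at a median Cy5 intensity of 105.1 to 242.2. PR dry replicate 1, called the bright array here, stood apart, with a median of 1995 and 43635 probes above background. For HF animals 2 and 3 the spike-in controls correlated at only 0.174 to 0.401, and deer lactation replicates 2 and 4 had a narrower spread of log2 ratios (SD 0.524 and 0.655) than the other deer arrays (0.804 to 0.847). HF animals had both arrays on 1 slide, while deer and cattle never shared a slide, so species and slide cannot be told apart. All HF dry arrays lay at position 1 of their slides and the HF lactation arrays at position 3 or 4. State and array position therefore cannot be told apart within HF. In deer only 1 slide held both states, with 1 dry and 2 lactation arrays, so state can hardly be told apart from slide and scan day there. Neutrophil markers moved with the state. Of the 10 listed, CXCR1 and CXCR2 share 1 probe, which was counted for each. The mean log2 ratio of all 10 ranged from -1.12 to -0.39 in HF dry arrays and from -0.39 to 1.35 in HF lactation arrays. In PR it ranged from -1.08 to -0.45 in the dry period and from -0.42 to 0.28 at lactation, and in deer from -0.21 to 0.46 and from -1.09 to -0.11. The log2 of the summed Cy5 signal of these markers ran from 16.6 to 17.3 in HF dry and from 17.1 to 18.4 in HF lactation arrays; of the list only CAMP was near background, with signal on 4 arrays. Monocyte markers were higher at lactation in HF as well (8 of 8, median difference 0.62) and B cell markers lower (6 of 6, median -0.46), and none of these passed the test. Fewer cells of a type and less RNA per cell cannot be told apart in blood.

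The kinase, the transcription factors and the inhibitors were measurable in blood, and the hormone receptors were near the limit. IGF1R, both JAK2 probes, all 3 STAT5A probes, STAT5B, SOCS2, SOCS3, CISH and 1 IGF1 probe (A_73_P102596) were well above background on 24 of 24 arrays. PRLR was above background on 9 arrays with probe A_73_106127 and on 1 with A_73_P070046. The GHR probe A_73_P046456 was above background on 18 arrays, while the probes A_73_P100951 and A_73_P100956, which overlap each other by 54 bases and lie 214635 bases or more from it, reached it on 3 and 1. For PRLR A_73_P070046 and GHR A_73_P100956 that 1 array was in PR dry, the group that holds the bright array. The 3 IGF1 probes were above background on 24, 22 and 7 arrays. Probes were tested where at least 3 of 4 arrays of a compared group were above background, which kept 13 or 14 of the 18 in each comparison and never PRLR A_73_P070046, GHR A_73_P100951, GHR A_73_P100956 or IGF1 A_73_P032221.

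The first question of the design is which transcripts differ between peak lactation and the dry period within HF, PR and deer. No member of the axis passed the test in any of them. By limma, a linear model fitted over all probes with Benjamini-Hochberg adjustment and a threshold of 0.05, 0 of 14 member probes were called in HF (0.00906% of all 33101 probes tested), 0 of 13 in PR (0% of 32590) and 0 of 13 in deer (0.00599% of 33389). At an unadjusted p under 0.05 there were 2 of 14 in HF (7.66% of all probes), 0 of 13 in PR (5.58%) and 1 of 13 in deer (9.04%). The groups did not overlap for 2 of 14 in HF, 0 of 13 in PR and 1 of 13 in deer, beside 6.41%, 2.18% and 4.38% of all probes. The smallest adjusted p of a member was 0.41 in HF, 0.85 in PR and 0.54 in deer by limma. The median member difference was 0.10 in HF, 0.0061 in PR and -0.09 in deer on the log2 scale, beside -0.0091, 0.021 and 0.0095 over all probes. None of the 18 probes stood in the authors' deposited tables, which hold 437 probes for HF, 158 for PR and 576 for deer.

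**Figure D1:**
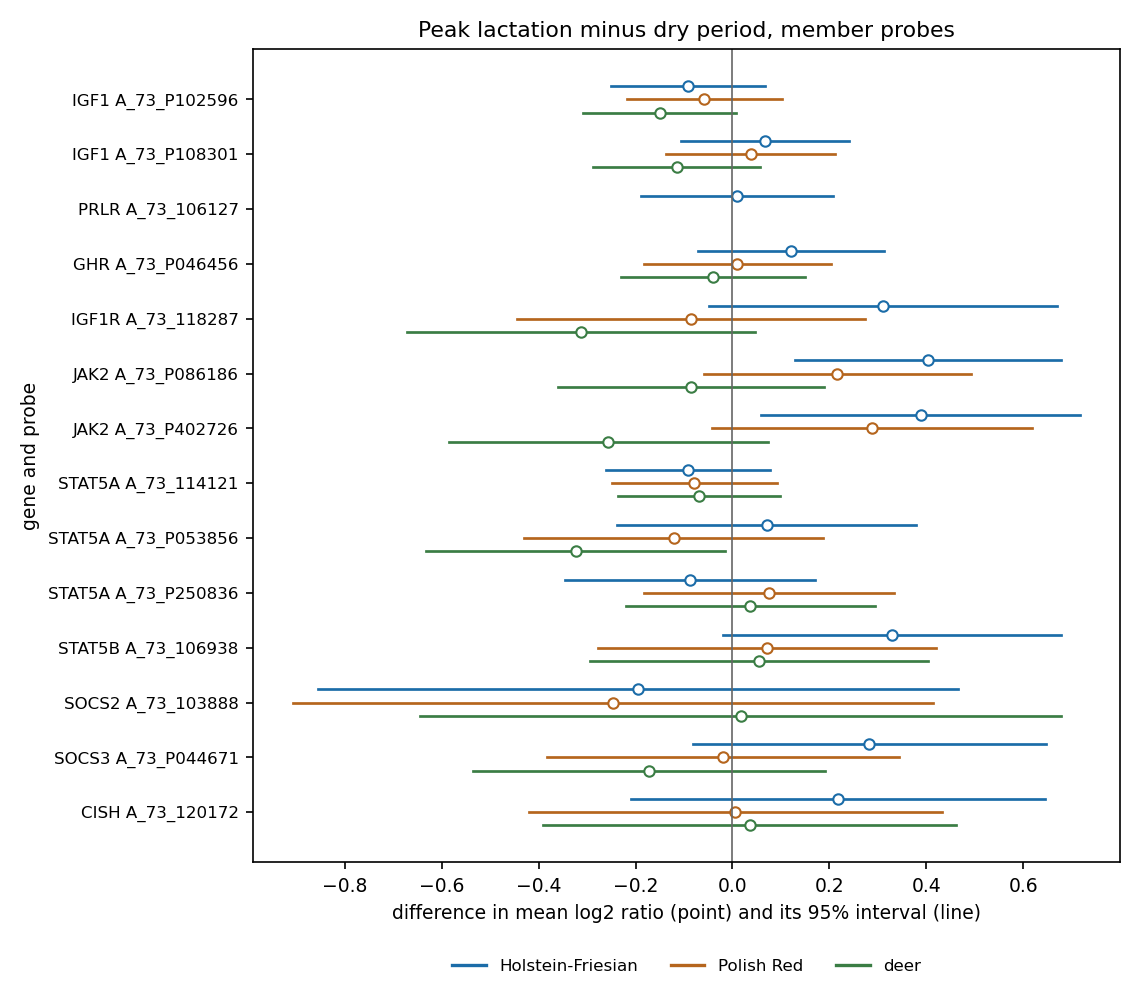
Peak lactation minus dry period for each tested member probe (rows) in HF, PR and deer (colours); points are differences in mean log2 ratio and lines their 95% intervals from limma, with 4 arrays in each group, and open points did not pass the test. Both JAK2 intervals in HF lie above 0 (0.13 to 0.68 and 0.06 to 0.72), STAT5A A_73_P053856 in deer lies below 0 (-0.63 to -0.02), all other intervals include 0, and no point passed after adjustment.

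IGF1, the circulating growth factor made mostly by the liver, gave values close to the reference in every cattle group. With the probe A_73_P108301 the group means were 0.0046 ± 0.05 (SD, n = 4) in HF dry, 0.07 ± 0.08 in HF lactation, 0.04 ± 0.13 in PR dry and 0.07 ± 0.06 in PR lactation. Deer stood at 0.25 ± 0.16 in the dry period and 0.14 ± 0.12 at lactation. The lactation difference was 0.07 (SE 0.08) in HF, 0.04 (SE 0.08) in PR and -0.12 (SE 0.08) in deer. On the only slide with both deer states it was 0.04. Under array weights, where the fit weighted arrays by their quality, the deer difference was -0.22 and passed the test (adjusted p = 0.031 by limma). That setting called 16.2% of all probes tested. The reference channel was above background on only 15 arrays with this probe and 18 with A_73_P102596, so these ratios sit near background too. The probe A_73_P102596 pointed the other way in cattle, with -0.09 in HF and -0.06 in PR, and its deer difference was -0.15 with a 95% interval from -0.31 to 0.0069. On the only slide with both deer states that difference was -0.22. In deer its 4 lactation values, -0.03, -0.02, -0.03 and -0.05, all lay below its 4 dry values, 0.17, 0.08, 0.19 and 0.05. It was the only tested member in deer whose groups did not overlap, beside 4.38% of all probes tested, and its adjusted p was 0.57 by limma. The probes A_73_P108301 and A_73_P102596 correlated at -0.02 over the 16 cattle arrays once group means were removed, while A_73_P108301 and the untested probe A_73_P032221 correlated at 0.51 in cattle and 0.83 over the 8 deer arrays. The cattle value includes the bright array, where the latter 2 probes gave 0.20 and 0.24. On the other PR dry arrays they gave -0.12 to 0.04 and -0.19 to -0.09. The correlation was not computed without the bright array.

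Among the receptors, PRLR A_73_106127, the probe for the prolactin receptor, ranged from -0.22 to 0.32 over cattle arrays and from -0.30 to -0.02 over deer arrays, and could be tested only where HF lactation entered, with 3 arrays above background. The HF lactation difference was 0.0093 (SE 0.10). GHR A_73_P046456, the growth hormone receptor, differed by 0.12 (SE 0.09) in HF, 0.0098 (SE 0.09) in PR and -0.04 (SE 0.09) in deer. These receptor values sit near background, where a log2 ratio is pressed towards 0.

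IGF1R, the receptor kinase for IGF1, was measured on all arrays and varied more. The HF dry arrays gave -0.41, -0.59, 0.15 and -0.19, and the HF lactation arrays of the same animals -0.05, 0.17, -0.07 and 0.15. Animals 1, 2 and 4 were higher at lactation and animal 3 was lower, and the groups overlapped. The difference was 0.31 (SE 0.17; adjusted p = 0.75 by limma). In PR it was -0.09 (SE 0.17), and in deer it was -0.31 (SE 0.17), where animal 4 had the widest gap, 1.16 in the dry period and 0.22 at lactation.

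JAK2, the kinase bound to both hormone receptors, had the largest lactation difference of any member in HF, on both of its probes. With A_73_P086186 the HF dry arrays gave -0.38, -0.60, -0.27 and -0.48, and the lactation arrays -0.20, -0.09, 0.26 and -0.07. Every lactation array was above every dry array, and each of the 4 animals was higher at lactation, by 0.18 to 0.53. The difference was 0.40 (1.32-fold; SE 0.13; 95% interval 0.13 to 0.68), with an unadjusted p of 0.0060 and an adjusted p of 0.41 by limma. With A_73_P402726 the dry arrays gave -0.50, -0.81, -0.35 and -0.49 and the lactation arrays -0.32, -0.25, -0.03 and 0.01. The groups again did not overlap, and all 4 animals were higher, with a difference of 0.39 (1.31-fold; SE 0.16; adjusted p = 0.53 by limma). Both probes are among the 6.41% of all probes tested whose HF groups did not overlap, and neither passed the test. The neutrophil markers given above were higher in the same arrays. Of the 9 tested, which leave out CAMP, 9 had a positive HF difference with a median of 1.15. Their part in the JAK2 value was not tested. Without HF animals 2 and 3 the JAK2 differences were 0.29 and 0.34. With array position in the fit A_73_P086186 gave 0.67 and A_73_P402726 gave 0.47 (adjusted p = 0.96 for each by limma). The HF states shared no array position, so in that fit the effect of position between them was taken from the other groups.

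In PR both JAK2 probes split by animal. With A_73_P402726 animals 1 and 2 went from -0.55 and -0.19 to 0.43 and 0.49, while animals 3 and 4 went from 0.29 and 0.20 to -0.03 and 0.02. The mean difference was 0.29 (SE 0.16; adjusted p = 0.85 by limma), and with A_73_P086186 it was 0.22 (SE 0.13). Without the bright array these were 0.13 and 0.15. With A_73_P402726 array weights gave 0.04 and the Cy5 signal alone 0.78. The 3 PR slides differed in sign as well: for A_73_P402726 the within-slide difference was 0.98 on the slide of the bright array, 0.19 and -0.21. In deer the values were -0.26 (SE 0.16) with A_73_P402726 and -0.09 (SE 0.13) with A_73_P086186. The HF effect minus the PR effect was 0.10 (SE 0.22) with A_73_P402726 and 0.19 (SE 0.19) with A_73_P086186, neither past the test. The deer effect lay below the mean cattle effect with A_73_P402726 (-0.60; SE 0.19; adjusted p = 0.56 by limma) and with A_73_P086186 (-0.40; SE 0.16; adjusted p = 0.58). Over the members 0 of 14 were called for the HF effect minus the PR effect (0% of 33478 probes; 0 of 14 against 2.96% at an unadjusted p under 0.05) and 0 of 14 for the deer effect minus the mean cattle effect (0% of 35431; 2 of 14, both JAK2, against 8.41%). Neutrophil markers differed in the same direction, with 0 of 9 higher and a median of -1.51 in the deer effect minus the mean cattle effect, and their part was not tested.

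**Figure D2:**
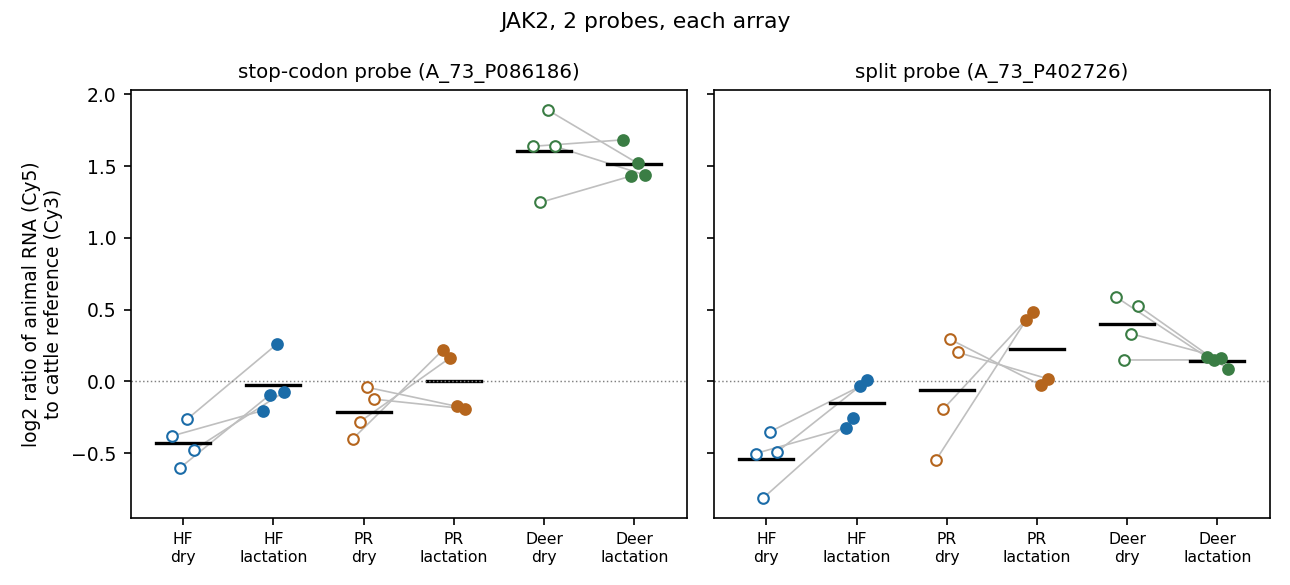
Log2 ratio to the cattle reference of both JAK2 probes (panels) on each of the 24 arrays, by group; open points are dry, filled points lactation, bars group means, and grey lines join the arrays of 1 animal. The stop-codon probe A_73_P086186 puts all 8 deer arrays between 1.25 and 1.89, above all 16 cattle arrays, while the junction probe A_73_P402726 puts deer between 0.08 and 0.59.

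STAT5A and STAT5B, the transcription factors that JAK2 activates, did not pass the test between the states. STAT5A A_73_P250836 differed by -0.09 (SE 0.12) in HF, 0.08 (SE 0.12) in PR and 0.04 (SE 0.12) in deer. STAT5A A_73_114121, which lies 190 bases beyond it, differed by -0.09, -0.08 and -0.07 (SE 0.08 each). The probe for both factors, A_73_P053856, was higher at lactation in 4 of 4 HF animals and lower in 4 of 4 PR animals, by small amounts: 0.07 and -0.12 on average. The difference between those effects was 0.19 (SE 0.21; adjusted p = 1.00 by limma). In deer that probe was lower at lactation in animals 2 and 4, at 0.21 and 0.30 against 0.86 and 0.98 in the dry period. In deer animals 1 and 3 it was 0.95 and 1.13 in the dry period and 0.92 and 1.20 at lactation. Its deer difference was -0.32 (SE 0.15; unadjusted p = 0.040, adjusted p = 0.54 by limma). Animals 2 and 4 at lactation are the arrays with the narrower spread of log2 ratios, and without them the difference was 0.08. Under array weights the difference was -0.59 and passed the test (adjusted p = 0.0031 by limma). That setting called 16.2% of all probes tested in deer.

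For STAT5B A_73_106938 the 4 HF dry arrays gave -0.50, -0.52, 0.02 and -0.23 and the lactation arrays -0.23, 0.33, 0.15 and -0.18. All 4 animals were higher at lactation, by 0.06 to 0.85, and the groups overlapped. The difference was 0.33 (SE 0.17; 95% interval -0.02 to 0.68; adjusted p = 0.69 by limma). In PR it was 0.07 (SE 0.17) and in deer 0.05 (SE 0.17).

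**Figure D3:**
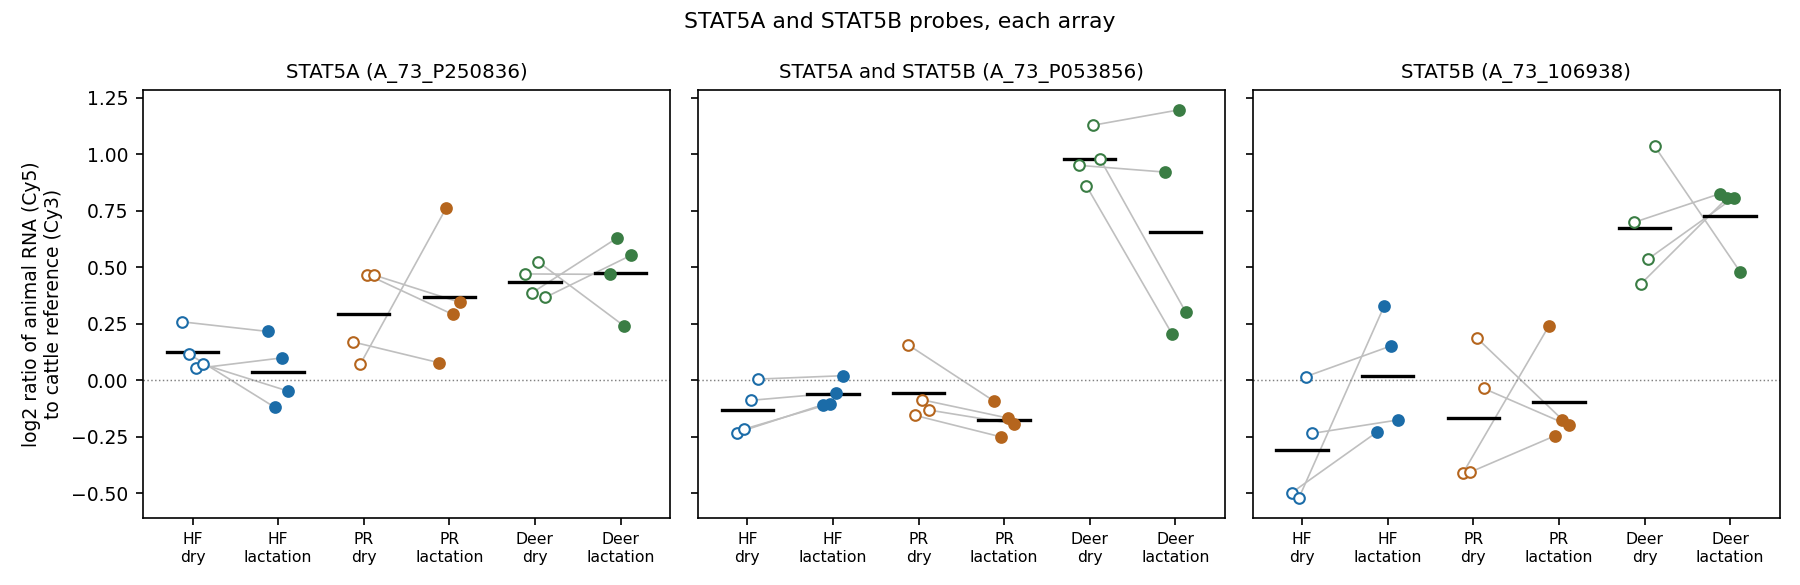
Log2 ratio to the cattle reference of 3 STAT5 probes (panels) on each of the 24 arrays, by group, drawn as for JAK2. STAT5A A_73_P250836 puts every HF array below every deer array within each state, with PR overlapping both, the shared probe A_73_P053856 puts deer above every cattle array with deer lactation animals 2 and 4 lowest among deer at 0.21 and 0.30, and STAT5B puts deer between 0.43 and 1.04.

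The inhibitors are transcriptional targets of STAT5, so they serve as a readout of the axis in tissues that respond to it. CISH A_73_120172, which binds phosphorylated cytokine receptors, gave 0.55, -0.02, 0.11 and 0.04 in HF dry arrays and 0.84, 0.15, 0.50 and 0.04 in HF lactation arrays. All 4 HF animals were higher at lactation, animal 4 by only 0.0097, and the difference was 0.22 (SE 0.21; adjusted p = 0.93 by limma). The PR dry arrays gave -0.79, 0.14, -0.27 and -0.44 and the lactation arrays -0.22, -0.28, -0.50 and -0.33, a difference of 0.0061 (SE 0.21). In deer it was 0.04 (SE 0.21).

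SOCS3 A_73_P044671, which blocks JAK kinases directly, differed by 0.28 (SE 0.18) in HF, where all 4 animals were higher at lactation, animal 2 by 0.78 and the others by 0.0059 to 0.29. Without HF animals 2 and 3, whose spike-ins correlated poorly, it was 0.03. It differed by -0.02 (SE 0.18) in PR and -0.17 (SE 0.18) in deer. SOCS2 A_73_103888, the inhibitor most tied to growth hormone action, differed by -0.19 in HF, -0.25 in PR and 0.02 in deer (SE 0.32 each).

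SOCS2 varied widely between animals. It had a within-group SD of 0.52 over the cattle arrays, above that of 98.2% of 33478 probes, whose median was 0.18. Its HF dry arrays gave 0.46, -0.14, 1.34 and 0.79 and its HF lactation arrays 0.33, 0.01, -0.01 and 1.33. Animal 3 went down by 1.35 from the highest dry value, and animal 4 went up by 0.54 to the highest lactation value. CISH had a within-group SD of 0.30, above that of 82.1% of probes, and SOCS3 one of 0.18, close to the median.

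**Figure D4:**
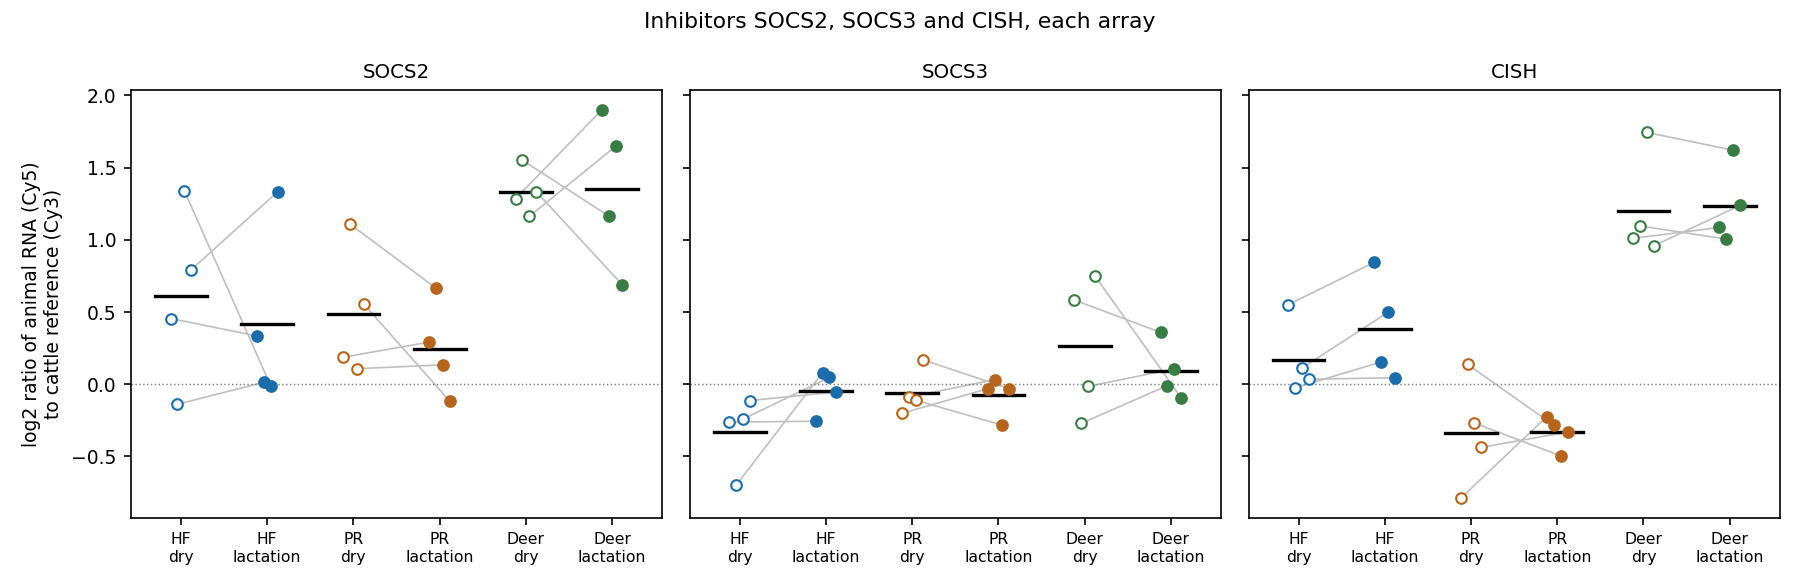
Log2 ratio to the cattle reference of SOCS2, SOCS3 and CISH (panels) on each of the 24 arrays, by group, drawn as for JAK2. SOCS2 ranges from -0.14 to 1.34 within cattle with no common direction, SOCS3 groups overlap within each state, and CISH lies between 0.96 and 1.74 in deer, above all cattle arrays.

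Of 56 further genes listed as ligands and binding proteins, related receptors, kinases and transducers, inhibitors and STAT5 targets, 54 were on the array and 51 or 52 were tested, each by its brightest probe. None passed the test between the states in HF, PR or deer, beside 0.0052%, 0% and 0.0103% of genes taken the same way. At an unadjusted p under 0.05 limma gave 3 of 52 in HF, 3 of 51 in PR and 6 of 51 in deer, beside 7.66%, 5.58% and 9.04% of all probes. The largest difference in HF was that of BCL6, a transcriptional repressor listed among the STAT5 targets, at 1.05 (SE 0.33; adjusted p = 0.39 by limma), and in PR it was again BCL6 at 0.65 (SE 0.33). Among ligands and binding proteins the largest HF difference was that of IGFBP3 (0.42), among receptors that of IGF2R (0.36) and among inhibitors that of CBL (0.28). The adaptor SH2B1, which enhances JAK2 activity, was -0.24 (SE 0.09) in HF and -0.22 (SE 0.09) in PR. In deer the largest inhibitor difference was CBL, a ubiquitin ligase, at -0.44 (SE 0.16), and CBL and IGFBP6 (-0.23; SE 0.08), a binding protein with preference for IGF2, were the only 2 of these genes whose brightest probe stood in the authors' deposited deer table. The largest deer difference of all was that of MYC, a growth regulator, at 0.49, which did not pass.

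HF and PR were next compared within each state. In the dry period 0 of 13 member probes were called, beside 2.62% of 32924 probes (2.32% higher in HF and 0.298% lower). An unadjusted p under 0.05 was found for 2 of 13 by limma, beside 21.6%, and the groups did not overlap for 0 of 13, beside 9.03%. At peak lactation 0 of 14 were called, beside 0% of 32949, and 3 of 14 had an unadjusted p under 0.05, beside 14.2%. CISH had the largest breed difference in both states. At lactation the 4 HF values, 0.04 to 0.84, all lay above the 4 PR values, -0.50 to -0.22; over all probes tested the groups did not overlap, in either direction, for 11.9%. The difference was 0.72 (1.65-fold; SE 0.21; 95% interval 0.29 to 1.15; adjusted p = 0.12 by limma), and in the dry period it was 0.51 (SE 0.21; adjusted p = 0.15). In the dry period it passed under median centring (0.89; adjusted p = 0.032) and without PR dry replicate 2 (0.67; adjusted p = 0.038), and at lactation under array weights (0.72; adjusted p = 0.034), all by limma. These settings called 18.2%, 12.7% and 2.67% of all probes, beside 2.62% in the dry period and 0% at lactation in the reported fit. Only 1 slide held both breeds, and there the order was the reverse, with CISH at 0.04 in both arrays of HF animal 4 and 0.14 in PR dry replicate 2.

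For both JAK2 probes and STAT5A A_73_P250836 the HF means lay below the PR means in both states, without passing the test. JAK2 A_73_P402726 was -0.54 ± 0.20 (SD, n = 4) in HF dry and -0.06 ± 0.39 in PR dry arrays, a difference of -0.48 (SE 0.16; adjusted p = 0.092 by limma), and it was -0.38 (SE 0.16; adjusted p = 0.28) at lactation. Its sign in the dry period depended on the scale: the Cy5 signal taken alone gave 0.07. Without the bright PR dry array the difference was -0.64 (adjusted p = 0.052 by limma), and array weights gave -0.68 (adjusted p = 0.0029). Array weights called 15% of all probes in that comparison. The other JAK2 probe gave -0.22 (SE 0.13) and -0.03 (SE 0.13). STAT5A A_73_P250836 was 0.04 ± 0.15 in HF and 0.37 ± 0.29 in PR at lactation, a difference of -0.33 (SE 0.12; adjusted p = 0.23 by limma), with -0.17 (SE 0.12) in the dry period. The other STAT5A probes did not share that sign: A_73_114121 gave 0.08 in the dry period and 0.06 at lactation (SE 0.08 each), and A_73_P053856 gave -0.08 and 0.11 (SE 0.15 each). Of the pathway genes, 2 of 52 tested were called in the dry period and 0 of 51 at lactation. Both were higher in HF, beside 2.99% of genes called higher. They were PTPN2, a phosphatase that acts on JAK and STAT proteins, at 0.72 (SE 0.17; adjusted p = 0.033 by limma), and SH2B1 at 0.36 (SE 0.09; adjusted p = 0.042). The dry-period calls over all probes depended on single arrays. They fell from 862 to 1 without HF dry replicate 2 or 3, and rose to 4191 without PR dry replicate 2. With only the compared groups fitted there were 0. The alternatives were not run for PTPN2 and SH2B1.

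Deer differed from cattle over much of the array, and the members shared in that. In the dry period 10 of 13 member probes were called against the mean of both breeds, 9 higher and 1 lower, beside 56.6% of 35175 probes called, 26.2% higher and 30.4% lower. At an unadjusted p under 0.05 there were 11 of 13, beside 60.7%, and the groups did not overlap for 5 of 13, beside 35.3%. At lactation 6 of 14 were called, all higher, beside 48.6% of 34265 probes called, 21.7% higher and 26.9% lower. At an unadjusted p under 0.05 there were 7 of 14, beside 54.1%, and the groups did not overlap for 4 of 14, beside 29.3%. The dry and lactation comparisons share no arrays, but they share animals. The pairing of deer RNA with cattle probes touches every one of these values.

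JAK2 A_73_P086186 differed most. Its dry deer arrays gave 1.64, 1.25, 1.89 and 1.64 and its lactation deer arrays 1.68, 1.43, 1.52 and 1.44, while the highest of the 16 cattle arrays was 0.26. The difference was 1.92 in the dry period (3.80-fold; SE 0.11; adjusted p = 1.07e-11 by limma) and 1.53 at lactation (2.88-fold; SE 0.11; adjusted p = 5.08e-10). JAK2 A_73_P402726, which lies 12829 bases away in the same gene, gave 0.59, 0.15, 0.33 and 0.53 in dry deer and 0.17, 0.15, 0.17 and 0.08 in lactating deer. Its differences were 0.70 (1.62-fold; SE 0.14; adjusted p = 1.70e-04 by limma) and 0.10 (SE 0.14; adjusted p = 0.56), so by this probe lactating deer did not differ from cattle beyond the error. On each array the first probe's log2 ratio minus that of the second ranged from -0.33 to 0.29 in cattle and from 1.05 to 1.56 in deer, with no overlap. This gap was formed after the values were seen and was not tested. In cattle the probes moved together, with a correlation of 0.85 over 16 arrays with group means removed, and in deer the correlation was 0.51 over 8 arrays.

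The 3 STAT5A probes also disagreed in deer. Their mean log2 intensity over all arrays was 8.89 for A_73_P250836, 7.04 for A_73_P053856 and 6.84 for A_73_114121. The last is close to that of IGF1 A_73_P108301, 6.76, a probe near background. The shared STAT5A and STAT5B probe A_73_P053856 was 1.07 higher in the dry period (SE 0.13; adjusted p = 3.49e-07 by limma) and 0.78 higher at lactation (SE 0.13; adjusted p = 3.45e-05). STAT5A A_73_P250836 was 0.23 higher (SE 0.11; adjusted p = 0.076) and 0.27 higher (SE 0.11; adjusted p = 0.042), and the lactation call was lost when any of 8 of the 12 lactation arrays was left out (adjusted p from 0.059 to 0.13). With these included, 13 of 25 alternatives lost that call, with adjusted p up to 0.39 by limma. The dry value of this probe passed under 4 of 26 alternatives (adjusted p down to 1.0e-04 by limma). STAT5A A_73_114121 was lower in the dry period (-0.17; SE 0.07; adjusted p = 0.045 by limma) and gave -0.15 at lactation (SE 0.07; adjusted p = 0.082), and its dry call was lost under 15 alternatives, with adjusted p from 0.051 to 0.26. Its lactation value passed under 4 of 25 alternatives (adjusted p down to 4.2e-04 by limma). Within deer the probes A_73_P250836 and A_73_P053856 correlated at -0.76 over 8 arrays, and within cattle at -0.45 over 16, with group means removed. The deer value includes lactation replicates 2 and 4, the arrays with a narrower spread. They gave 0.63 and 0.55 on A_73_P250836 and 0.21 and 0.30 on A_73_P053856. The correlation was not computed without them. STAT5B was 0.91 higher in the dry period (1.88-fold; SE 0.15; adjusted p = 1.54e-05 by limma) and 0.77 higher at lactation (1.70-fold; SE 0.15; adjusted p = 1.55e-04).

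CISH was higher in deer in both states, at 1.20 ± 0.37 (SD, n = 4) in the dry period and 1.24 ± 0.27 at lactation. The lowest of the 8 deer arrays was 0.96 and the highest of the 16 cattle arrays 0.84. The difference was 1.29 (2.44-fold; SE 0.18; adjusted p = 2.46e-06 by limma) and 1.21 (SE 0.18). SOCS2 was 0.78 higher (SE 0.28; adjusted p = 0.020) and 1.02 higher (SE 0.28; adjusted p = 0.0040), with deer arrays from 0.69 to 1.90 and cattle arrays from -0.14 to 1.34. The dry call of SOCS2 was lost without deer dry replicate 2 (0.71; adjusted p = 0.061), by Cy5 alone (0.78; adjusted p = 0.059) and with array position in the fit (0.33; adjusted p = 0.47), and the lactation call under array weights (0.55; adjusted p = 0.056), all by limma. SOCS3 was 0.46 higher in the dry period (SE 0.15; adjusted p = 0.014 by limma) and 0.15 higher at lactation without passing, and its dry call was lost without deer dry replicate 1 (0.35; adjusted p = 0.079) or 4 (0.29; adjusted p = 0.11), without HF animals 2 and 3 (0.38; adjusted p = 0.060), and with array position in the fit (0.26; adjusted p = 0.26). Fitted on the compared groups only it gave the same difference with an adjusted p of 0.051.

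Among ligand and receptors, IGF1R was 0.72 higher in dry deer (1.65-fold; SE 0.15; adjusted p = 3.10e-04 by limma) and 0.30 higher in lactating deer (SE 0.15; adjusted p = 0.11). IGF1 A_73_P108301 was 0.23 higher in dry deer (SE 0.07; adjusted p = 0.0087) and lost that call without deer dry replicate 1 (0.16; adjusted p = 0.069), without background correction (0.16; adjusted p = 0.090), under median centring (0.31; adjusted p = 0.054) and with array position in the fit (0.21; adjusted p = 0.067). By Cy5 alone the sign turned, to -0.28 (adjusted p = 0.64). In the reported fit IGF1 A_73_P102596 and GHR A_73_P046456 did not pass in either state, and PRLR A_73_106127, tested at lactation only, did not pass there (-0.13; SE 0.08; adjusted p = 0.19 by limma). Some alternatives gained a call. In the dry period GHR A_73_P046456 passed under 2 of 25 and IGF1 A_73_P102596 under 1 of 26 (adjusted p down to 0.034 and 0.049 by limma). At lactation PRLR A_73_106127 passed under 2 of 24 and IGF1R under 3 of 25 (adjusted p down to 0.027 and 0.0014 by limma).

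**Figure D5:**
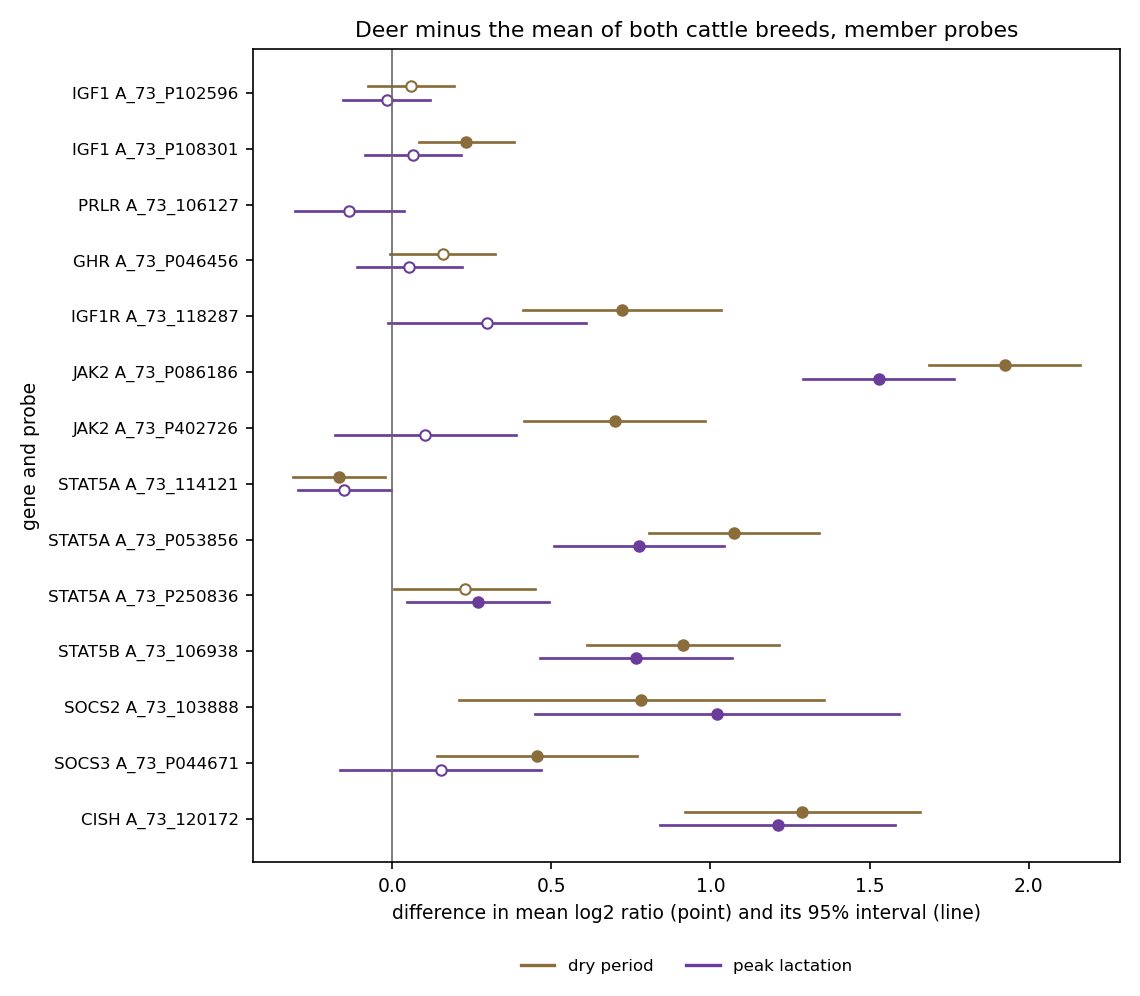
Deer minus the mean of HF and PR for each tested member probe (rows) in each state (colours: dry, lactation); points are differences in mean log2 ratio, lines 95% intervals from limma, and filled points passed the test (adjusted p under 0.05). The JAK2 stop-codon probe lies at 1.92 and 1.53 and the JAK2 junction probe at 0.70 and 0.10, while CISH, STAT5B, SOCS2 and the shared STAT5 probe lie above 0 in both states.

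Of the 52 further pathway genes tested, 19 were called higher and 9 lower in dry deer, beside 24.4% and 32.7% of genes by their brightest probes, and 14 higher and 11 lower in lactating deer, beside 20.5% and 29.3%. IGF2R, the receptor that takes up IGF2 for degradation, was 2.38 higher (SE 0.20) in the dry period and 1.75 higher (SE 0.20) at lactation. The adaptor GRB2 was 1.17 and 0.84 higher (SE 0.12 each), STAT3 0.98 and 0.74 higher (SE 0.12 each), and the erythropoietin receptor EPOR 0.71 higher in both (SE 0.08). The phosphatase PTPN6, which switches off JAK signalling, was lower, at -1.12 and -1.28 (SE 0.15 each), as was PIK3R1, a regulatory subunit of PI3 kinase, at -0.97 and -0.75 (SE 0.13 each). Cell markers differed too: in dry deer 5 of 9 neutrophil markers and 5 of 8 monocyte markers were called higher and 2 monocyte markers lower, and in lactating deer 1 of 9 neutrophil markers was called higher and 3 lower, while 4 of 5 erythroid markers were called lower, with a median of -2.56. Their part in the members' values was not tested.

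Within cattle the members had different closest genes. By the correlation of log2 ratios over the 16 cattle arrays, with group means removed and 12731 other genes compared, STAT5B lay closest to C5AR1 (r = 0.93), FOXO3 (0.92) and CEBPD (0.92). SOCS2 lay closest to SV2B (0.94), SLC2A1 (0.93) and KCTD15 (0.92), JAK2 to SETMAR (0.89), LOC534967 (0.89) and RXRA (0.88), and CISH to GATM (0.89), TMEM25 (0.87) and GDF2 (0.85). SOCS3 lay closest to SLC3A2 (0.87), STAT5A A_73_P250836 to NPFF (0.95), IGF1R to GGA1 (0.90) and IGF1 A_73_P108301 to CACNG3 (0.93). Among members, STAT5B and the JAK2 probe A_73_P086186 correlated at 0.64, JAK2 A_73_P402726 and SOCS3 at 0.61, and CISH and SOCS2 at 0.08. The arrays share the reference pool and pairs of them share an animal or a slide, so these correlations are descriptions of the 16 arrays. The bright array is among them, and the correlations were not computed without it.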

How the data were processed

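The arrays are 24 two-colour Agilent bovine arrays; the members and the gene lists were chosen with earlier results of these data known. Spot intensity values of Cy5 and Cy3 were deposited by the authors as Feature Extraction output (version 10.10.1.1 per the file headers, 10.7.3.1 per the submitters' processing notes), with yes or no calls of signal above background. The log10 ratios that the authors deposited in the same output equalled log10 of processed Cy5 over Cy3 within 0.001 for 89.53% of spots. The log2 values, ratios and fold changes printed here were computed from the deposited mean and background intensities: normexp background correction with an offset of 50, loess within each array, control and outlier spots given no weight, and no scaling between arrays, with limma 3.58.1 under R 4.3.3, the files being read with data.table (version 1.17.8). The authors' deposited tables of selected probes were used only to look up members.

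The 6 groups of 4 arrays were fitted in 1 model with 9 contrasts, and p-values were adjusted by Benjamini-Hochberg over all probes tested. The series text describes a one-way analysis of variance with Tukey's comparison, without pairing, so no animal block was used in the model reported. Same-numbered arrays come from the same animal per the series text; their deviations from group means correlated at 0.18 to 0.50 in HF, 0.03 to 0.28 in PR and 0.18 to 0.35 in deer. Every probe named for a member is reported; a gene's lead probe is its brightest on average, the 3 genes most like it are given by correlation over the cattle arrays, and pathway genes are named where they passed a test or had the largest difference of their role, of which 1 is not reported here. Gene names are those of the files. Figures were drawn with Python 3.11.15 and matplotlib 3.10.9. In simulated data for HF lactation against dry, over 33101 probes, 36% of changes of 0.5, 82.5% of 1 and 100% of 2 on the log2 scale were recovered. At each size 200 probes were changed, and 5, 8 and 12 unchanged probes were called. The noise was drawn independently for each probe and array. Effects that arrays share, such as slide or cell composition, were not simulated, so these rates may not hold for the real arrays. The number of arrays limits the precision. Exon and UTR assignment was not made here.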

Additional observations from a re-analysis of the deposited data

Results flagged for a closer look

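In 6 of 108 sets of 4 arrays 1 value stood apart from the other 3 by Dixon's criterion, about what chance gives at 1 in 20. PRLR A_73_106127 was 0.32 in PR dry replicate 1, the bright array, and 0.003 to 0.04 in the other PR dry arrays. STAT5A A_73_114121 was 0.17 in the same array and 0.0023 to 0.02 in the others. IGF1 A_73_P102596 was -0.024 in PR dry replicate 3 and 0.05 to 0.07 in the others. In PR lactation, GHR A_73_P046456 was 0.16 in replicate 4 and -0.0035 to 0.02 in the others, and STAT5B was 0.24 in replicate 1 and -0.24 to -0.17 in the others. STAT5B was 0.48 in deer lactation replicate 4, an array with a narrow spread of log2 ratios, and 0.80 to 0.83 in the others.

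The STAT5A and STAT5B probe A_73_P053856 was higher at lactation in 4 of 4 HF animals and lower in 4 of 4 PR animals. The difference between the breeds' effects was 0.19, and limma's test of that difference gave an adjusted p of 1.00.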

How the results depend on the processing

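The count of member probes called between the states stayed at 0 in HF and PR under all alternatives. In deer array weights gave 2 calls, STAT5A A_73_P053856 and IGF1 A_73_P108301 (adjusted p down to 0.0031 by limma), beside 16.2% of all probes. For the deer effect minus the mean cattle effect they gave 3, beside 8.35%. For HF minus PR they gave 1 in each state, beside 15% in the dry period and 2.67% at lactation. In the dry period median centring also gave 1, beside 18.2%. Leaving out 1 array at a time gave 0 to 1, the call being CISH without PR dry replicate 2, where 12.7% of all probes were called. The cause was not tested. Deer minus cattle gave 7 to 11 calls in the dry period and 5 to 9 at lactation. The shares of all probes called ranged from 43.4% to 63.4% and from 37.3% to 64.4%. The sign of 1 called value turned: IGF1 A_73_P108301 in dry deer was -0.28 by Cy5 alone. With the animal as a replicate block the count was 0 in all 5 contrasts it allows, with a smallest adjusted p of 0.32 for HF, 0.74 for PR and 0.42 for deer by limma, and no call changed. The analysis of variance of the series text with Tukey's comparison called 0 member probes between the states, with a smallest unadjusted Tukey p of 0.072 for JAK2 A_73_P086186 in HF. Over single probes and all comparisons, 2918 of 3122 alternative values had the sign of the reported one, 42 lost a call with the same sign and 25 gained one; the other sign changes were in values that had not passed the test. The settings without deer lactation replicates 2 and 4, and without HF animals 2 and 3 and the bright array together, were chosen after seeing the data. On the only slide with both deer states, the lactation difference changed sign for IGF1 A_73_P108301 (0.04), STAT5A A_73_114121 (0.13) and STAT5A A_73_P250836 (-0.01). It also changed for SOCS3 (0.15) and CISH (-0.58). The other tested member probes kept their sign there, among them A_73_P053856 at -0.52. The PRLR, GHR and IGF1 probes lay near background, with the reference channel above it on at most 18 of 24 arrays, which limits what their ratios can show.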
